A study of Homo sapiens with 30 samples.

Results

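The 101 genes described here are the zinc finger genes with a symbol of ZNF and a number that 22Rv1 cells expressed at the start of a labelling experiment. 22Rv1 cells derive from a human prostate cancer that is resistant to castration. A gene entered if its mean deposited CPM was at least 10 over the 3 libraries taken at 0 h, and its transcript with the highest summed CPM stands for it. They are 101 of 511 such ZNF genes with a messenger RNA row, among 22399 genes in the table. The members were chosen by their level at 0 h, so levels set against 0 h are given as a description with no test, while conversion and the comparisons among later libraries were not used by it. At the minimum, ZNF264, ZNF277 and ZNF398 lay just inside with means of 10.1, 10.1 and 10.2 deposited CPM, and ZNF708, ZNF592 and ZNF534 just outside with 9.99, 9.97 and 9.97.

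The study followed RNA made while CDK9, the kinase that releases paused RNA polymerase II into elongation, was inhibited. Cells were given 4-thiouridine (s4U) at 800 µM, and the 0 h libraries, which saw no compound, were taken 30 min later. The groups set against DMSO received 1.2 µM KB742 or 4 µM KI-ARv-03, both CDK9 inhibitors, in medium that still held s4U, and the vehicle groups received DMSO in the same medium. Each of these 3 arms was collected after 2, 4 and 8 h, which with 0 h makes 10 groups of 3 libraries and 30 libraries in all, every one of them from s4U-labelled cells of 1 line. SLAM-seq alkylates s4U in the extracted RNA, so that reads of labelled RNA carry T-to-C conversions, and the libraries sample each message near its 3′ end. The doses of the compounds differ, so their values stand side by side and were not compared with each other, and both share the DMSO libraries.

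Most human ZNF genes encode C2H2 zinc finger proteins, in which each finger holds a zinc ion between a pair of cysteines and a pair of histidines and reads a few bases of DNA. Many carry a KRAB domain, which recruits the corepressor TRIM28 and through it the H3K9 methyltransferase SETDB1, and silence transposable elements. KRAB zinc finger genes lie in clusters, above all on chromosome 19, and zinc finger messenger RNAs are known as a short-lived class.

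Per library 3376884 to 9265131 reads lay behind the CPM column and 1409980 to 3959931 fell on the genes kept, with 11648 to 14341 genes detected. The members took 0.64% to 0.757% of the gene reads at 0 h. KLK2, KLK3, HOXB13, FOXA1, KRT8 and KRT18, markers of luminal prostate cells, had reads in all 30 libraries. Of 8 markers of other cell types, PTPRC and VWF had no read in any library, CD3E, PECAM1 and TP63 had none in 29 and KRT5 none in 27, while COL1A1 lay at 0.52 to 23.1 and CD68 at up to 4.3 rescaled CPM. Libraries 0 h replicate 3, KB742 2 h replicate 2 and KB742 4 h replicate 1 stood apart from their groups. For example, ZNF428 had 701, 1016 and 959.5 rescaled CPM in them, against 251 to 335 in 5 of their 6 group mates and 202 in the sixth. KI-ARv-03 4 h replicate 1 had a mean conversion of 1.17% over all reads, against 0.374% and 0.416% in the other 2 libraries of its group. Counts of members called that change without the first 3 are given with and without them. The choice of members and the levels set against 0 h were not redone without 0 h replicate 3. Some members lay below 10 deposited CPM in 0 h replicates 1 and 2 and entered through replicate 3. Among them, ZNF205 had 52, 50 and 357 reads at 0 h, ZNF414 45, 56 and 300, and ZNF865 35, 27 and 217.

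The promoters of 3 members that behaved differently are shown first, from 250 bases before to 50 after the start of the gene, credited to RefSeq on GRCh38.p14. ZNF503 lay furthest below its 0 h level with DMSO at 8 h, ZNF664 lay above its 0 h level and was hardly labelled, and ZNF3 lay above its 0 h level with DMSO at 8 h and below it with either compound. ZNF3 lies at chr7:100081674-100081973 on the minus strand, ZNF503 at chr10:75401867-75402166 on the minus strand and ZNF664 at chr12:123972965-123973264 on the plus strand. Capitals mark the letters GGGCGG (a GC box), CCAAT or TATAAA on either strand.
ZNF3: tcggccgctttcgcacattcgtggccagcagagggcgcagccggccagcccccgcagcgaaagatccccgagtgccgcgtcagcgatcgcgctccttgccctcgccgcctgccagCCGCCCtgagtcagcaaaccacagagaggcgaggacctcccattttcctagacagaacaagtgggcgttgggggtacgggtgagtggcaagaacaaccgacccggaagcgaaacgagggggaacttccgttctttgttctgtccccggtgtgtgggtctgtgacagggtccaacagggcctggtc
ZNF503: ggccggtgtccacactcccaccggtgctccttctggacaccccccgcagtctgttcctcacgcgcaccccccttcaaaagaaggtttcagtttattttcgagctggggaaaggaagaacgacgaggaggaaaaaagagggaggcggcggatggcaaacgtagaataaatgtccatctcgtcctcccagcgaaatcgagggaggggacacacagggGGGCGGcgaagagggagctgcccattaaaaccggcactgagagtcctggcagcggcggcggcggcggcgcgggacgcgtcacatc
ZNF664: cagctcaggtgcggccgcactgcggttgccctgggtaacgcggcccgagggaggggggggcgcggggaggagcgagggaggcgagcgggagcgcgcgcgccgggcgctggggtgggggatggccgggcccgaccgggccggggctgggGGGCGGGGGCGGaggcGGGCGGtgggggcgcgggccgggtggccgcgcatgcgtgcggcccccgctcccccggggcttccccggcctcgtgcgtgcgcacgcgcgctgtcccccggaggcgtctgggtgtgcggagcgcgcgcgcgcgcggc
The 3 sequences hold 1, 1 and 3 GC boxes and neither of the other motifs, and overlapping copies were counted apart. Promoters of the same length were found for 88 of the 101 members. Of these, 64.8% hold GGGCGG, 45.5% hold CCAAT and 3.4% hold TATAAA on either strand, against 44.6%, 35.7% and 12% of all 27305 promoters. Their median GC content is 63.2%, against 58.3% over all promoters. All promoters were taken whatever the level of their gene, unlike those of the members, so the sets differ in more than gene family. A match is a description of these letters and not a binding site.

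Translated reference transcripts of the members hold a median of 8 C2H2 fingers, taking the highest count among the transcripts of a gene. ZNF462 holds the most with 34, and ZNF259 (now ZPR1), ZNF330, ZNF503 and ZNF839 hold none by the pattern used. A pattern for the KRAB box matched 30 members, although it misses variant boxes, and a pattern for the SCAN domain, which lets zinc finger proteins pair, matched ZNF24, ZNF397, ZNF444 and ZNF500. Chromosome 19 holds 25 of the members and chromosome 7 holds 15. At 0 h the level of the members, in CPM rescaled by TMM factors over gene reads, had a median of 33.4. The highest were ZNF503, which acts in brain development in mouse, at 582 ± 10.3, and ZNF428 at 403 ± 258, ZNF664 at 279 ± 71.2, ZNF770 at 151 and ZNF207, a microtubule-binding factor of the mitotic spindle, at 119 ± 13.4 (mean ± SD, n = 3). The large spread of ZNF428 comes from replicate 3, which had 701 against 256 and 251 in replicates 1 and 2.

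After 0 h the ZNF messages lost ground to other messages, in DMSO as well as with the compounds. With DMSO the median member lay 0.59 below its 0 h level at 2 h, 0.97 below at 4 h and 1.30 below at 8 h, as differences of log2(CPM + 1). At 8 h with DMSO, 88 of the 101 members lay below their 0 h level, 60 of them by more than 1, and 13 lay above it. All 11399 genes tested for level, which include all 101 members, had medians of -0.02, 0.01 and -0.15 at these times, and the 6491 genes that also reached 10 deposited CPM at 0 h had 0.02, 0.11 and 0.09. With KB742 the medians of the members were -0.75, -1.12 and -1.41, and with KI-ARv-03 they were -0.81, -1.09 and -1.54. The 210 other ZNF genes that passed the filter on low values, which were not chosen for a high level at 0 h but may have passed through it, had medians of -0.88, -1.10 and -1.54 with DMSO. A level is a share of the reads of its library, so that less RNA per cell of a gene and more of the others cannot be told apart, nor can fewer cells. Under the deposited scaling all genes together had a median of -0.73 with DMSO at 8 h and the members -1.89, and under scaling by the sum of reads these medians were -0.88 and -2.06, so the members lay further below 0 h than the median gene under each scaling.

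**Figure D1:**
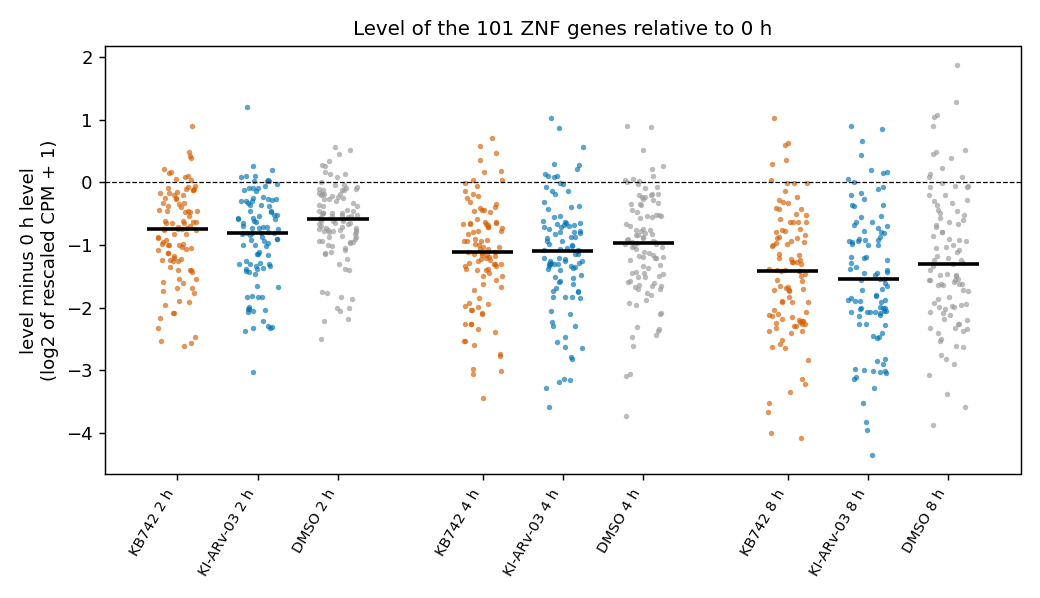
Level of each of the 101 ZNF genes relative to its own 0 h level, as the difference of the means of log2(rescaled CPM + 1), for KB742, KI-ARv-03 and DMSO at 2, 4 and 8 h. Points are genes and black bars medians, and the dashed line marks the 0 h level; the DMSO medians lie at -0.59, -0.97 and -1.30.

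ZNF503 stood at 586, 591 and 571 rescaled CPM in the 3 libraries at 0 h. With DMSO it stood at 79.6, 104 and 127 at 2 h, at 65.9, 63.9 and 71.8 at 4 h and at 26.8, 34.5 and 62.9 at 8 h. No library at 2, 4 or 8 h reached the 0 h values. With the compounds at 8 h it lay at 39.8, 33.2 and 28.2 with KB742 and at 45.0, 41.8 and 34.8 with KI-ARv-03, within or close to the range of DMSO. After ZNF503, with a difference of -3.87 between DMSO at 8 h and 0 h on the log2 scale, the lowest were ZNF92 (-3.58), ZNF507 (-3.38), ZNF462 (-3.08) and ZNF429 (-2.90). At the other end were ZNF3 (1.86), ZNF511 (1.28), ZNF664 (1.08), ZNF219 (1.04) and ZNF358 (0.89). ZNF219 is a repressor of transcription, and ZNF92 and ZNF429 carry KRAB boxes.

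Among libraries taken after 0 h, the loss could be tested between DMSO at 8 h and DMSO at 2 h, in a fit that did not pair the libraries. Of the 101 members 23 fell and 2 rose (limma, adjusted p under 0.05), which is 24.8% of them, against 26.6% of all genes tested (10.3% higher and 16.4% lower). The share called is near that of all genes. The median difference of the members was -0.60 against -0.13 over all genes. The fallers with the lowest adjusted p were ZNF462, ZNF148, ZNF503, ZNF672, ZNF839, ZNF770, ZNF512B and ZNF146. ZNF462, a large chromatin factor of development, had 2.49, 3.10 and 0 rescaled CPM at 8 h, against 14.2, 15.2 and 15.5 at 2 h, so the groups did not overlap. Its difference was -2.72 ± 0.50 (log2, SE; limma adjusted p = 0.000336), on 4, 8 and 0 reads at 8 h. ZNF148, which binds GC-rich DNA, had 14.95, 22.9 and 10.2 at 8 h, against 41.6, 42.8 and 54.4 at 2 h, and fell by 1.53 ± 0.347 (limma adjusted p = 0.00209). ZNF503 fell by 1.37 ± 0.312 (limma adjusted p = 0.00225). No single library left out ended the calls of these 8 genes.

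The only 2 risers were ZNF664 and ZNF3. ZNF664 had 631, 612 and 502 rescaled CPM with DMSO at 8 h, against 281, 310 and 212 at 2 h. The difference was 1.13 ± 0.244 (log2, SE; limma adjusted p = 0.0014). ZNF3, a KRAB zinc finger gene on chromosome 7, had 116, 116 and 406 at 8 h, against 46.0, 46.7 and 104 at 2 h, a difference of 1.52 ± 0.455 (limma adjusted p = 0.0151). Each 8 h library of both genes lay above all 3 of the 2 h libraries. The ZNF3 call rested on single libraries: without DMSO 8 h replicate 3 the difference was 0.86 (limma adjusted p = 0.173), and without DMSO 2 h replicate 1 or 2 the adjusted p was 0.0686 or 0.0679. Scaling decided both calls. Under the deposited scaling 55 members fell and none rose, and under scaling by the sum of reads 61 fell and none rose, where the median of all genes moved to -0.53 and -0.71; ZNF664 then differed by 0.55 and 0.45 and ZNF3 by 0.93 and 0.85, none of these 4 past the threshold. The share of all genes called under these 2 scalings is not given here, so the counts of 55 and 61 cannot be set against it. With TMM scaling and without DMSO 2 h replicate 1 or 2 the number of members called was 15 or 14.

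Conversion, deposited as a fraction and given here in percent, grew in the ZNF messages much further than in the median gene. At 0 h the median member stood at 0.82% and all genes at 0.28%. With DMSO the median over members with a value was 2.96% at 2 h (92 members), 6.20% at 4 h (81) and 4.91% at 8 h (57), against 0.57%, 0.86% and 0.88% over all genes with a value. Values behind under 20 reads were left out, so members that had lost most of their reads had none at 8 h. Conversion was higher with DMSO than at 0 h (limma on the arcsine scale) in 31 of 92 members tested at 2 h, in 56 of 81 at 4 h and in 43 of 57 at 8 h, and lower in no member. The share of all genes called was 8.35%, 34.4% and 42.7% (8.31%, 34.4% and 42.6% higher, 0.0362%, 0.0256% and 0.0465% lower), so each share of the members, 33.7%, 69.1% and 75.4%, lay above it. Without the 3 libraries that stood apart these counts were 17, 50 and 39, and the 2 h count was 17 without 0 h replicate 3 and 16 without DMSO 2 h replicate 3. Without DMSO 8 h replicate 2, the deepest of its group, the 8 h count was 26. Fewer members could then be tested, as 78 had a value in that library and 55 and 45 in replicates 1 and 3.

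**Figure D2:**
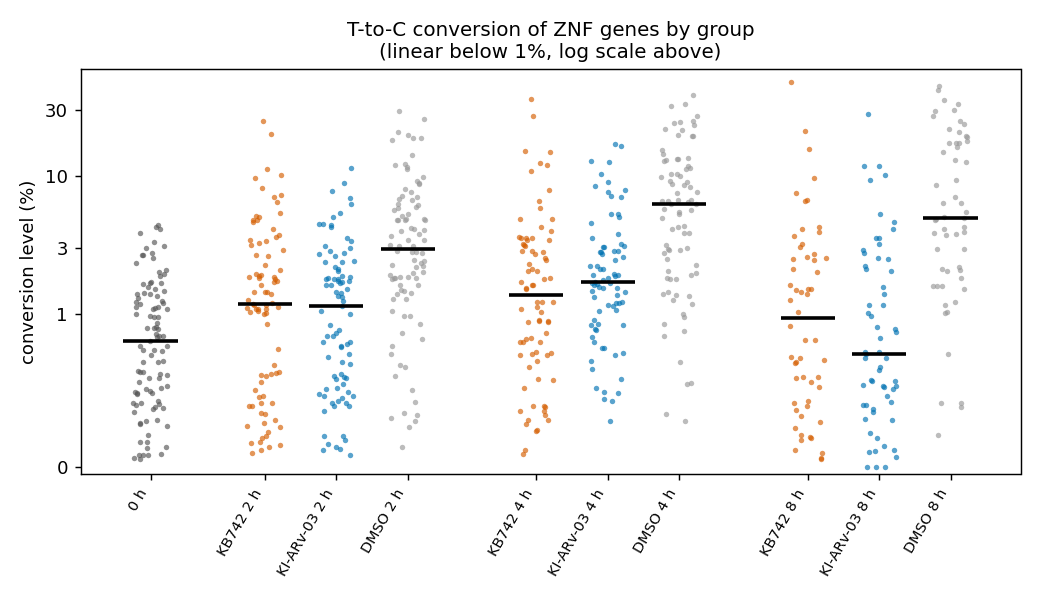
Conversion level in percent of the ZNF genes with a value in at least 2 libraries of a group, at 0 h and with KB742, KI-ARv-03 and DMSO at 2, 4 and 8 h, on an axis that is linear below 1% and logarithmic above. Points are genes and black bars medians; the DMSO medians lie at 2.96%, 6.20% and 4.91% and the medians with KB742 at 1.18%, 1.36% and 0.97%.

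The members spanned the whole range from nearly unlabelled to strongly labelled. ZNF574, a gene on chromosome 19, had 43.3% and 47.1% with DMSO at 8 h in the 2 libraries with enough reads, against 6.68%, 4.17% and 1.43% at 0 h. ZNF791, a KRAB gene on chromosome 19, had 40.8%, 43.4% and 40.6%, against 4.25%, 2.70% and 2.90% at 0 h. ZNF3 had 37.7%, 34.7% and 34.7%, against 3.12%, 1.09% and 1.65% at 0 h. In these 3 genes every DMSO 8 h value lay far above every 0 h value. ZNF687, a chromatin-bound factor, averaged 33.1% ± 4.48 and ZNF281, a repressor that acts in stem cells and with MYC, 30.0% ± 3.32, against 2.32% ± 1.44 and 2.68% ± 0.767 at 0 h (SD, n = 3 each). The limma adjusted p of these 5 genes ran between 8.32e-14 and 9.38e-09.

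The lowest conversion with DMSO at 8 h was that of ZNF124 at 0.205%, ZNF511 at 0.390%, ZNF664 at 0.413%, ZNF76 at 0.414% and ZNF706 at 0.735%. ZNF664 had 0.244%, 0.430% and 0.565%, against 0.118%, 0.115% and 0.012% at 0 h, with 543 to 1578 reads behind each of the 8 h values. The groups did not overlap (arcsine difference 0.037 ± 0.013, limma adjusted p = 0.0194). ZNF3 and ZNF664, the 2 genes that gained level between 2 h and 8 h, thus lay at opposite ends of the range of conversion.

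With either compound the median ZNF message was less labelled than with DMSO at every time, and many single members passed the test at 4 h and 8 h. With KB742 the medians were 1.18%, 1.36% and 0.970% at 2, 4 and 8 h, and with KI-ARv-03 1.13%, 1.69% and 0.737%. Conversion with KB742 was below that with DMSO (limma, adjusted p under 0.05) in 3 of 84 members tested at 2 h, 33 of 74 at 4 h and 25 of 49 at 8 h, where 0.855%, 17.3% and 34.4% of all genes were called, nearly all lower (higher in 0%, 0.0132% and 0%). Conversion with KI-ARv-03 was below DMSO in 5 of 85, 23 of 74 and 25 of 46, where 0.749%, 7.16% and 36.7% of all genes were called (0.749%, 7.11% and 36.7% lower, 0%, 0.0526% and 0.0159% higher). No member was called higher. The shares of members called were 3.57%, 44.6% and 51.0% with KB742 and 5.88%, 31.1% and 54.3% with KI-ARv-03.

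The 2 h counts were small and unstable. With KB742 the 3 members were ZNF3, ZNF480 and ZNF687, with 1 called without DMSO 2 h replicate 3, 5 without DMSO 2 h replicate 1 and 1 without the 3 libraries that stood apart. With KI-ARv-03 the 5 were ZNF480, ZNF746, ZNF3, ZNF275 and ZNF148, with none called without DMSO 2 h replicate 3 or KI-ARv-03 2 h replicate 2, 1 without DMSO 2 h replicate 2 or KI-ARv-03 2 h replicate 1, and 9 without the 3 libraries that stood apart. At 4 h the KB742 count was 14 without those 3 libraries, 13 without KB742 4 h replicate 1, 15 without KB742 4 h replicate 2 and 21 without DMSO 4 h replicate 3. The KI-ARv-03 count at 4 h was 31 without its replicate 1, whose conversion stood high over all reads, 9 without its replicate 2, 13 without its replicate 3, and 14 or 15 without DMSO 4 h replicate 2 or 3. At 8 h both counts were 15 without DMSO 8 h replicate 2, which also left fewer members to test. On a log2 scale in place of the arcsine scale, none was called at 2 h with either compound, 5 with KB742 and 1 with KI-ARv-03 at 4 h, and 16 with KB742 at 8 h.

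ZNF3 showed the pattern at all 3 times. At 2 h it had 10.4%, 4.80% and 5.84% conversion with KB742 and 8.00%, 6.77% and 11.8% with KI-ARv-03, against 14.9%, 17.6% and 23.6% with DMSO. At 8 h it had 12.6%, 18.0% and 16.7% with KB742 and 15.6%, 12.6% and 7.34% with KI-ARv-03, against 37.7%, 34.7% and 34.7% with DMSO. All values with the compounds lay below all DMSO values at both times. The arcsine differences at 8 h were -0.233 ± 0.033 with KB742 (limma adjusted p = 2.46e-06) and -0.292 ± 0.034 with KI-ARv-03 (limma adjusted p = 1.66e-07). The 2 h call with KB742 was lost without DMSO 2 h replicate 3 (limma adjusted p = 0.0762) and without the 3 libraries that stood apart (0.0644), and that with KI-ARv-03 without DMSO 2 h replicate 2 or 3 or KI-ARv-03 2 h replicate 1 or 2 (0.0605 to 0.2). On a log2 scale ZNF3 was not called at 2 or 4 h with either compound or at 8 h with KB742 (limma adjusted p = 0.129).

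ZNF480, a KRAB gene on chromosome 19, had 6.13% and 8.75% with KB742 at 8 h and 6.34%, 3.26% and 6.12% with KI-ARv-03, against 25.7%, 25.9% and 23.4% with DMSO. ZNF444, a SCAN gene that activates transcription, had 0%, 0.415% and 0.158% with KB742 and 0% in all 3 libraries with KI-ARv-03, against 9.82%, 11.2% and 4.80% with DMSO, on 26 to 87 reads. In neither gene did a compound overlap with DMSO, and both were called with both compounds (limma adjusted p = 2.77e-06 or lower), although on a log2 scale ZNF480 was not called with KB742 (limma adjusted p = 0.0939). The other members called at 8 h with the lowest adjusted p were ZNF282, ZNF714, ZNF268, ZNF512 and ZNF787 with KB742 and ZNF37A, ZNF714, ZNF24, ZNF512 and ZNF268 with KI-ARv-03. ZNF24, a SCAN repressor, averaged 6.70% ± 0.613 under KB742 and 4.598% ± 0.409 under KI-ARv-03, against 17.3% ± 2.11 under DMSO (SD, n = 3 each).

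For a few strongly labelled members the values with a compound overlapped with DMSO or could not be tested. ZNF574 had 47.6%, 44.4% and 50.8% with KB742 at 8 h, against 43.3% and 47.1% with DMSO. The ranges overlapped, and the arcsine difference was 0.025 with a 95% interval of -0.067 to 0.116 (limma adjusted p = 0.689). With KI-ARv-03 the 1 library with enough reads had 46.0%. ZNF791 had 31.1% in 1 library with KB742 and 39.4% in 1 library with KI-ARv-03 at 8 h, against 40.8%, 43.4% and 40.6% with DMSO. Both values lay below each DMSO value and could not be tested. ZNF281 had 26.4%, 30.5% and 28.0% with KI-ARv-03, against 26.2%, 32.6% and 31.0% with DMSO, with an interval of -0.116 to 0.080 on the arcsine scale (limma adjusted p = 0.795). With KB742 it had 21.4%, 14.0% and 28.5%, with an interval of -0.197 to -0.009 (limma adjusted p = 0.0821). These intervals do not show that the compounds act like DMSO on these genes.

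**Figure D3:**
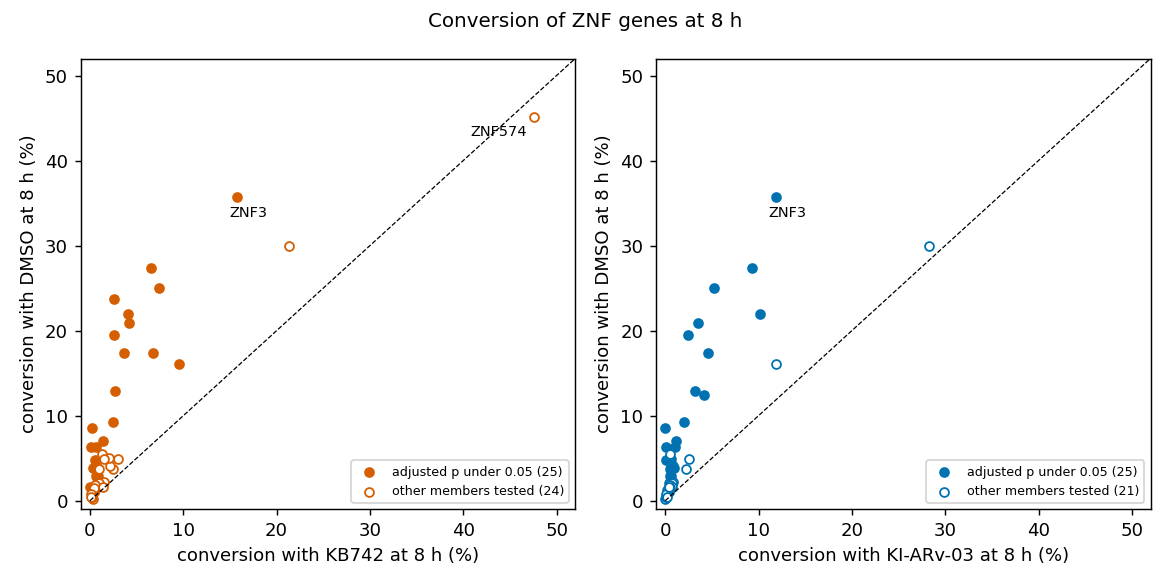
Mean conversion in percent at 8 h of each ZNF gene tested, with KB742 (left panel, 49 genes) or KI-ARv-03 (right panel, 46 genes) on the horizontal axis and DMSO on the vertical axis; the dashed line marks equal values. Filled points passed an adjusted p under 0.05 (25 in each panel) and nearly all points lie above the line, while ZNF574 lies close to it.

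Levels set against DMSO passed the threshold in far fewer members than conversion, and in the main fit only at 8 h. At 2 h no member passed the threshold with KB742 (limma), where 0.0263% of all genes did, and 11 had an unadjusted p under 0.05. At 2 h with KI-ARv-03 none passed either (9 at an unadjusted p under 0.05), with 0.0263% of all genes called. At 4 h none passed with KB742 (16 at an unadjusted p under 0.05) or with KI-ARv-03 (13), where 0.114% and 0.0614% of all genes were called. As shares of all genes, 0.0351% were higher and 0.079% lower with KB742, and 0.0175% higher and 0.0439% lower with KI-ARv-03. edgeR called no member at these times, and DESeq2 called 1 at 4 h with KB742 and 1 at 2 h with KI-ARv-03.

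At 8 h with KB742, 4 members fell and 1 rose of 101, which is 4.95%, against 1.78% of all genes (1.25% higher, 0.535% lower). At 8 h with KI-ARv-03, 7 fell and 1 rose, which is 7.92%, against 2.89% of all genes (1.95% higher, 0.939% lower). Most calls over all genes were thus of higher levels, and most calls among the members of lower levels. The median member differed by -0.21 with KB742 and by -0.28 with KI-ARv-03, against -0.02 and 0.00 over all genes. Under the deposited scaling the median of all genes moved to 0.26 and 0.25 and that of the members turned to 0.13 and 0.05, and 1 member rose and 1 fell with KB742 and 1 rose and 2 fell with KI-ARv-03. Scaled by the sum of reads, 1 rose and 2 fell with KB742 and 2 rose and 6 fell with KI-ARv-03. When only the 2 groups compared were fitted, none was called with either compound.

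ZNF3 was called lower with both compounds. It had 17.3, 33.7 and 34.2 rescaled CPM with KB742 at 8 h and 29.2, 43.4 and 15.3 with KI-ARv-03, against 116, 116 and 406 with DMSO. Every value with a compound lay below every DMSO value, and DMSO replicate 3 stood far above its mates. The log2 differences were -2.65 ± 0.455 with KB742 (limma adjusted p = 0.00153) and -2.66 ± 0.455 with KI-ARv-03 (limma adjusted p = 0.00113). Without DMSO 8 h replicate 3 they were -2.00 and -1.98, still past the threshold but no longer the lowest (ZNF687 with KB742, at -2.12, and ZNF791 with KI-ARv-03 then lay lower), and no other library left out ended either call. With the compounds the ZNF3 mean stayed between 24.6 and 32.3 at all times, below its 48.7 at 0 h, while the DMSO means were 65.4, 94.9 and 213 at 2, 4 and 8 h.

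ZNF687 had 5.23, 4.03 and 8.18 rescaled CPM with KB742 and 7.70, 4.76 and 9.52 with KI-ARv-03, against 20.6, 39.9 and 26.8 with DMSO. Neither compound overlapped with DMSO. The differences were -2.14 ± 0.481 (limma adjusted p = 0.0168) and -1.85 ± 0.481 (limma adjusted p = 0.035). The KB742 call was lost without DMSO 8 h replicate 2 or 3 or KB742 8 h replicate 1 or 2 (limma adjusted p of 0.0671 to 0.0738), and the KI-ARv-03 call without DMSO 8 h replicate 2 or 3 or any library of KI-ARv-03 at 8 h (0.0714 to 0.125).

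ZNF281 had 22.9, 10.1 and 29.7 with KB742 and 24.3, 16.9 and 21.1 with KI-ARv-03, against 40.5, 52.7 and 74.0 with DMSO. It lay lower in every library with a compound, by 1.45 ± 0.376 with KB742 (limma adjusted p = 0.0412) and by 1.35 ± 0.376 with KI-ARv-03 (limma adjusted p = 0.0472). These calls were lost without DMSO 8 h replicate 2 or 3, KB742 8 h replicate 1 or 2 or any library of KI-ARv-03 at 8 h (0.075 to 0.268). Conversion of ZNF281 with KI-ARv-03 was close to that with DMSO at the same time, as given above.

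ZNF791 had 8.11, 3.18 and 2.07 rescaled CPM with KI-ARv-03 at 8 h, against 25.5, 32.2 and 22.2 with DMSO, on 20, 6 and 5 reads with the compound. The groups did not overlap, and the difference was -2.48 ± 0.479 (limma adjusted p = 0.00375); without KI-ARv-03 8 h replicate 3 it was -2.15 with an adjusted p of 0.055. ZNF714, a gene on chromosome 19, had 23.9, 20.6 and 20.7, against 45.5, 60.1 and 59.2 with DMSO, and lay 1.29 ± 0.306 lower (limma adjusted p = 0.0195). Its call was lost without DMSO 8 h replicate 2 or 3 or KI-ARv-03 8 h replicate 1 or 3 (0.0517 to 0.12). ZNF689 and ZNF828 (now CHAMP1, a factor of kinetochore attachment) were called lower on a few reads, 1, 1 and 1 for ZNF689 and 3, 0 and 2 for ZNF828 with KI-ARv-03, against 4, 13 and 5 and 5, 15 and 9 with DMSO (limma adjusted p = 0.0132 and 0.022). Without DMSO 8 h replicate 2 or 3 and without KI-ARv-03 8 h replicate 3 neither passed, nor ZNF689 without replicate 1 and ZNF828 without replicate 2 (0.0503 to 0.141).

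ZNF24 had 27.3, 10.6 and 19.3 with KB742 at 8 h, against 36.8, 48.8 and 47.2 with DMSO, all lower with the compound. The difference was -1.26 ± 0.323 (limma adjusted p = 0.0396), and it lost its call without DMSO 8 h replicate 2 or 3 or KB742 8 h replicate 2 or 3 (0.0735 to 0.213). With KI-ARv-03, ZNF24 had 28.4, 14.3 and 36.8, which touches the DMSO range.

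ZNF839 was the only member called higher, with both compounds. It had 12.5, 6.54 and 11.2 rescaled CPM with KB742 and 11.8, 11.1 and 12.8 with KI-ARv-03, against 4.99, 2.33 and 3.70 with DMSO, on 4 to 8 reads in the DMSO libraries. The differences were 1.24 ± 0.330 (limma adjusted p = 0.0488) and 1.50 ± 0.330 (limma adjusted p = 0.0119), and the groups did not overlap. At 0 h it stood at 25.005 ± 3.90, so its level was below 0 h in all arms at 8 h. Its conversion was 0.464% with KI-ARv-03 at 8 h, against 0.618% at 0 h, among the lower values of the members. The KB742 call was lost without DMSO 8 h replicate 2 or 3 or KB742 8 h replicate 1 or 3 (0.128 to 0.193), and the KI-ARv-03 call without KI-ARv-03 8 h replicate 3 (0.0726). With edgeR the KB742 calls of ZNF839, ZNF24 and ZNF281 and the KI-ARv-03 call of ZNF281 were lost (adjusted p of 0.0524 to 0.0768). Over all members, 5 were called with KB742, and 1 without DMSO 8 h replicate 2 or 3, 2 without KB742 8 h replicate 2 and 3 without its replicate 3. With KI-ARv-03 8 were called, and 3 or 4 without DMSO 8 h replicate 2 or 3, 4 without KI-ARv-03 8 h replicate 1 and 1 without its replicate 3.

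**Figure D4:**
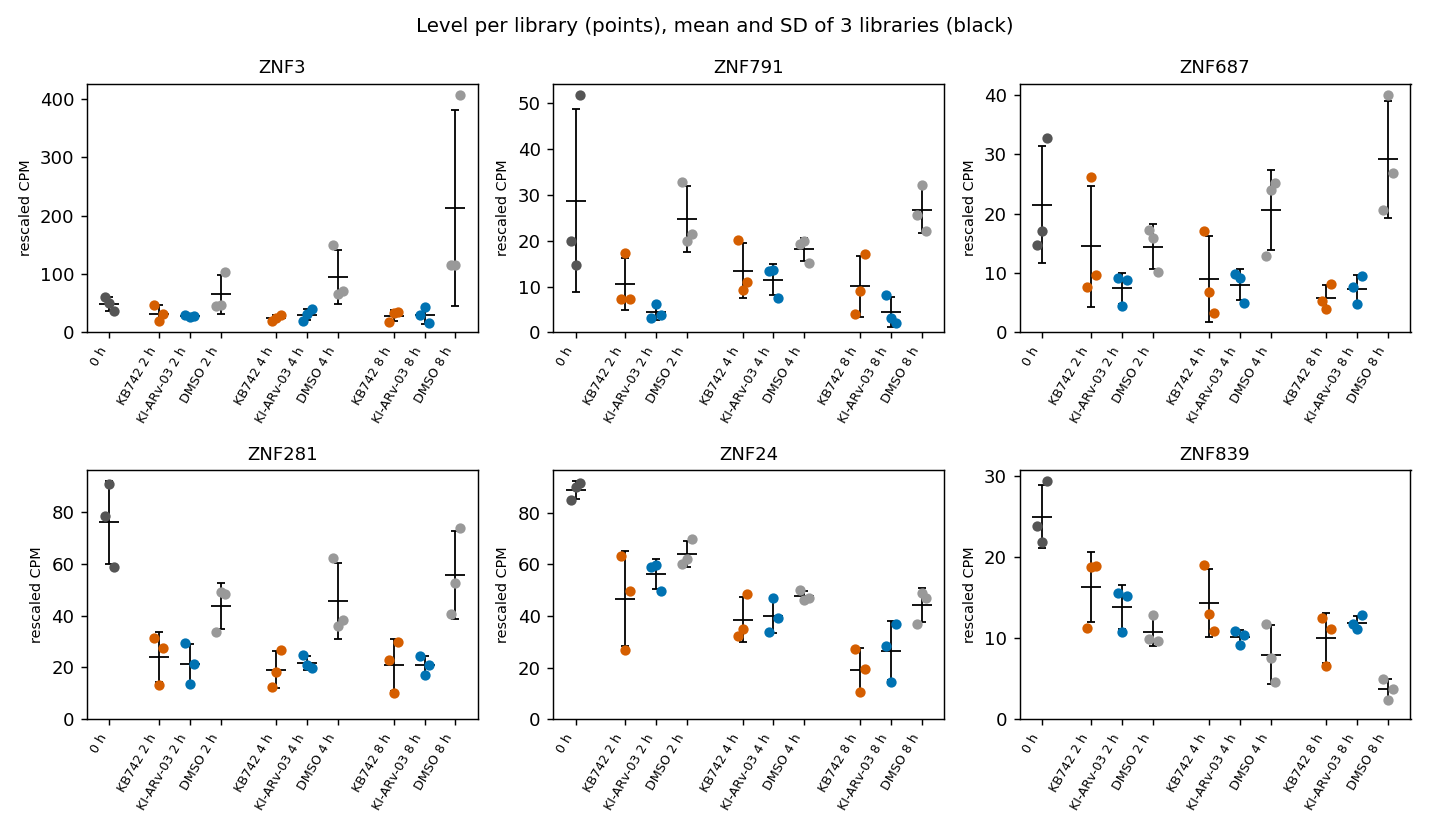
Level in rescaled CPM of ZNF3, ZNF791, ZNF687, ZNF281, ZNF24 and ZNF839 in each of the 30 libraries (points), with the mean and SD of 3 libraries in black, at 0 h and with KB742, KI-ARv-03 and DMSO at 2, 4 and 8 h. ZNF3 reached 116, 116 and 406 with DMSO at 8 h and stayed at or below 43.4 with the compounds there, and ZNF839 was the one gene of the 6 that lay higher with the compounds.

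Members with more conversion early with DMSO tended to lie lower in level with the compounds at 8 h. Over the 92 members with a value, the log2 of conversion with DMSO at 2 h and the log2 level difference at 8 h had a Pearson r of -0.549 (Spearman rho -0.536) with KB742 and -0.576 (-0.561) with KI-ARv-03. These are correlations across genes that share libraries, the 2 compounds share the DMSO libraries at 8 h, and no p is given. The conversion with DMSO at 4 h had an r of only -0.055 with the level difference between DMSO at 8 h and at 2 h (81 members). It had an r of 0.401 with the number of fingers, of -0.298 with the level at 0 h and of -0.083 with the length of the 3′ UTR.

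**Figure D5:**
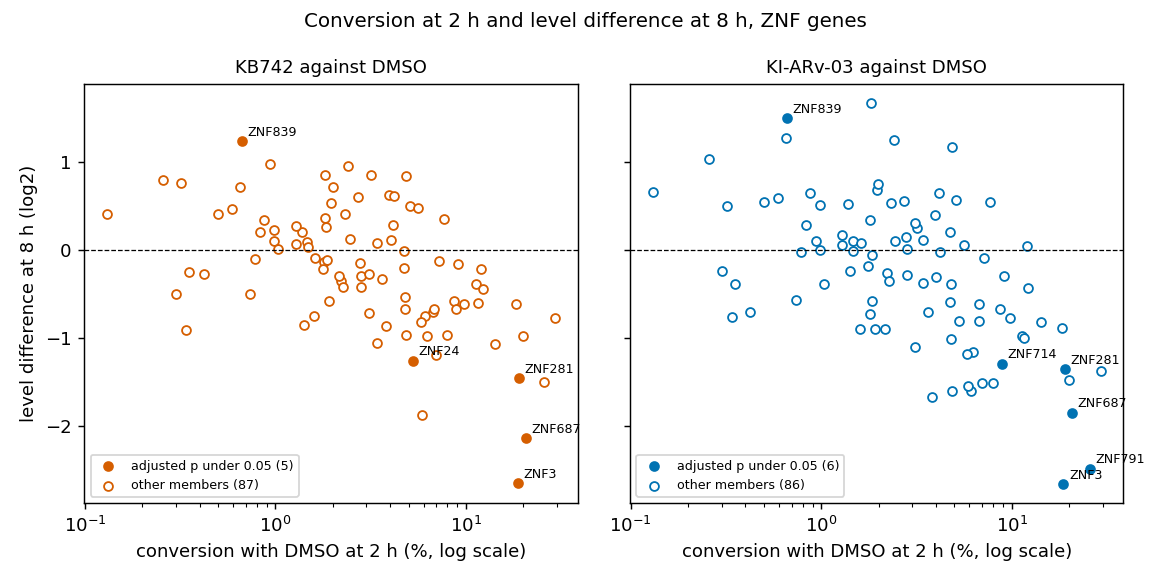
Conversion with DMSO at 2 h in percent (log scale) and log2 difference of level at 8 h between KB742 (left panel) or KI-ARv-03 (right panel) and DMSO, for the 92 ZNF genes with a conversion value. Filled points passed an adjusted p under 0.05 for level; ZNF3 lies lowest in both panels (-2.65 and -2.66), and Pearson's r was -0.549 and -0.576.

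Classes of members differed in how far they were labelled, given here without a test. With DMSO at 8 h the 17 members with a KRAB match and a value had a median conversion of 12.9% and the 40 others 4.01%. The 13 on chromosome 19 had 20.9%, against 4.17% for the 44 on other chromosomes. The KRAB and chromosome 19 members overlap, and with few values left at 8 h these medians rest on the members that kept reads. With KB742 at 8 h the KRAB members had 2.48% and the others 0.716%, and with KI-ARv-03 1.71% and 0.557%. At 4 h the order was the other way with KB742, with 1.21% in 23 KRAB members and 1.52% in 57 others, and with KI-ARv-03 the medians were 1.90% and 1.58%. In level, the KRAB members had a median difference of -0.42 between DMSO at 8 h and 2 h, with 5 of 30 lower and 1 higher, and the others -0.62, with 18 of 71 lower and 1 higher. Of all genes 16.4% were lower and 10.3% higher in this comparison, and the share of the KRAB members called lower was near the first of these. Set against 0 h, the medians with DMSO at 8 h were -1.37 for the KRAB members and -1.29 for the others.

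Of a list of 30 ZNF genes known as DNA-binding or chromatin factors, 15 are members. Of these, 3 fell in level at 8 h with KB742 (ZNF24, ZNF281 and ZNF687) and 2 with KI-ARv-03 (ZNF281 and ZNF687), where 0.535% and 0.939% of all genes were called lower. Between DMSO at 8 h and 2 h 4 of the 15 fell, against 16.4% of all genes. Conversion with DMSO at 8 h was above 0 h in 9 of 11 tested, against 42.6% of all genes. Of a list of 14 ZNF genes with roles in RNA processing, ribosomes, SUMO or mitosis, 11 are members. They had a median conversion of 1.70% with DMSO at 8 h. None was called in level with a compound at 8 h, where 1.78% (KB742) and 2.89% (KI-ARv-03) of all genes were called. For 11 members a count of 0 is near these shares. Conversion at 8 h was called lower than with DMSO in 1 of 7 tested with KB742 (ZNF207) and in 2 of 7 with KI-ARv-03. Of all genes 34.4% and 36.7% were called lower, so ZNF207 does not stand for the list. ZNF207 of this list had 103, 87.5 and 92.2 rescaled CPM with KB742 and 123, 85.2 and 101 with KI-ARv-03, against 68.5, 81.8 and 54.6 with DMSO. Its conversion at 8 h was 0.555% ± 0.481 under KB742 and 0.568% ± 0.302 under KI-ARv-03, against 3.92% ± 1.99 under DMSO (SD, n = 3 each; limma adjusted p = 0.000112 and 0.000517).

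The partners of KRAB zinc fingers, 30 corepressor and H3K9 methylation genes that were all tested, are given from the same fits. The other scalings were not run on them. TASOR (FAM208A) was also on the list but was found under neither symbol among the genes kept. TRIM28 averaged 412 rescaled CPM under KB742 and 379 under KI-ARv-03 at 8 h, against 299 under DMSO, and neither difference passed. Of the 30, MORC2 and UHRF1 rose with KB742 at 8 h (1.45 ± 0.380 and 2.22 ± 0.558, limma adjusted p = 0.0441 and 0.0353). UHRF2 rose with KI-ARv-03 at 8 h (1.30 ± 0.354, limma adjusted p = 0.0425), and none of the 30 fell. For comparison, 1.25% of all genes rose at 8 h under KB742 and 1.95% under KI-ARv-03. The DMSO means of MORC2, UHRF1 and UHRF2 at 8 h were low, at 3.85, 1.63 and 4.96 rescaled CPM. Results with single libraries left out are not given here for these genes. Between DMSO at 8 h and 2 h 7 of the 30 fell, among them ATF7IP, the partner of SETDB1, by 2.58 ± 0.438 (limma adjusted p = 0.000154). In the same comparison HDAC1, RBBP4 and RBBP7 rose, where 16.4% of all genes were lower and 10.3% higher. Conversion with DMSO at 8 h was above 0 h in 5 of 20 tested, a lower share than the 42.6% of all genes. The most labelled was TRIM24, a bromodomain coactivator, with means of 12.1% under KB742 and 10.99% under KI-ARv-03, against 32.5% under DMSO (limma adjusted p = 2.88e-05 and 2.96e-05). Of the other C2H2 families (ZBTB, ZSCAN, ZKSCAN and ZFP genes), 57 were tested for level, with 3 lower and none higher at 8 h with either compound, where 0.535% (KB742) and 0.939% (KI-ARv-03) of all genes were lower. Conversion with DMSO at 8 h was above 0 h in 13 of 17, against 42.6% of all genes.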

How the data were processed

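RNA of 22Rv1 cells was measured by SLAM-seq with 3′ end libraries in 10 groups of 3, and titles gave group and time. No label states whether the replicates were separate cultures, so p-values measure the spread between these libraries, which may be technical. The labels conflict in places: a treatment field of most 4 h samples names another time, one for KB742 gives another dose than title and extraction protocol, and all descriptions name DMSO, so titles and the extraction protocol were used. The ERCC spike-in named there was not used here.

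The table that was deposited lists RefSeq transcripts in 85618 rows; the submitters' processing notes name hg19. Aligner and conversion caller: not given in the sources used here. Its CPM is a signal that the authors scaled to a library total, and whole reads were recovered from it (100% of values within 0.05 of a whole number). The second deposited measure is a conversion fraction without its numerator or denominator, so no interval of a single value can be given.

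Reads were rescaled by TMM factors (edgeR 4.0.16) into CPM of gene reads, here called rescaled CPM, and log2(CPM + 1) was tested with limma 3.58.1 (R 4.3.3, trended variance) on all 30 libraries, for genes passing filterByExpr (minimum count 10). Conversion behind at least 20 reads entered limma as the arcsine of the square root, where both groups had 2 or more values. A call is an adjusted p under 0.05 (Benjamini-Hochberg, all genes of the fit). At this depth, 95% intervals of members' log2 differences reached a median of 0.83 to either side. The scripts were run on simulated data, in which conversion started above the median of all genes here, so weakly labelled genes were not covered. The rule for naming took, per comparison and direction, up to 8 called members by adjusted p, the 5 highest in level at 0 h, the 5 at each end of conversion with DMSO at 8 h and of level with DMSO at 8 h relative to 0 h, the 3 on each side of the minimum, and members of the role lists. Members named beyond it were chosen after their values were seen. Fingers, KRAB and SCAN boxes were searched in every translated reference transcript of a gene, taking any match and the highest finger count. They need not describe the transcript measured: ZNF268 has 25 fingers, while its measured transcript encodes 126 residues. The 3′ UTR length came from 1 transcript a gene, matched by identifier in 95 of 101. The KRAB pattern was widened after the matches of the first were seen. The members, lists and rules were chosen with earlier results of these data known. Same-numbered libraries of DMSO at 8 h and 2 h deviated together (r of 0.16 to 0.26 in all 3 pairs), so the numbers may pair them there. The main fit did not use this, and its estimates and p-values for that comparison are unpaired. Alternatives were other scalings, pseudocounts and filters, edgeR, DESeq2 1.42.0, a fit of 2 groups, a replicate block, and libraries left out. Another was to sum the reads over all positions of a gene. With it, the 8 h level calls of ZNF24 with KB742 and ZNF281 with KI-ARv-03 were lost (limma adjusted p = 0.0697 and 0.053). Some markers of the cell type are not reported here.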

Additional observations from a re-analysis of the deposited data

Results flagged for a closer look

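The level of 2 members differed from DMSO in opposite directions at 4 h and at 8 h with KI-ARv-03, with no overlap between the groups at either time. ZNF219 averaged 7.59 rescaled CPM more with KI-ARv-03 than with DMSO at 4 h (28.8, 31.4 and 29.03, against 28.5, 23.1 and 14.8) and differed by -19.1 at 8 h (20.7, 33.3 and 15.7, against 38.6, 37.6 and 50.9). ZNF706 differed by -8.37 at 4 h (21.5, 31.8 and 28.7, against 34.4, 33.1 and 39.5) and averaged 14.7 more at 8 h (32.8, 28.6 and 50.1, against 24.9, 19.4 and 23.1). Neither gene was called at either time, and the difference between the times was not tested. The share of all genes that turn in this way is not given here, so these 2 members cannot be set against it.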

How the results depend on the processing

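Of 87 calls named by the rule, none reversed under any alternative, and in 892 of 1036 pairs of a call and an alternative the call held. Counts of members called in level moved with scaling. With the deposited scaling they were 2 (KB742, 8 h), 3 (KI-ARv-03, 8 h) and 55 (DMSO 8 h against 2 h), and scaled by the sum of reads 3 (KB742, 8 h) and 61 (DMSO). The shares of all genes called under these scalings are not given here. With KB742 at 8 h no filter and edgeR each gave 2. A fit of the 2 groups alone gave 0 at 8 h with either compound, and DESeq2 gave 1 for KB742 at 4 h and 1 for KI-ARv-03 at 2 h. Conversion counts on a log2 scale were 0, 5 and 16 with KB742 at 2, 4 and 8 h, 0 and 1 with KI-ARv-03 at 2 and 4 h, and 20 for DMSO at 2 h. With at least 50 reads, which leaves fewer members to test, they were 13 and 8 with KB742 at 4 and 8 h, 10 and 12 with KI-ARv-03 at 4 and 8 h, and 19, 27 and 17 for DMSO at 2, 4 and 8 h against 0 h. A fit of 2 groups gave 0 with either compound at 2 h and 20 for DMSO at 2 h. Without the 3 libraries that stood apart, an alternative chosen after seeing the data, 1 member was called in level with KI-ARv-03 at 2 h, and the conversion counts were 1 and 14 with KB742 at 2 and 4 h, 9 with KI-ARv-03 at 2 h and 17 for DMSO at 2 h. The cause of these shifts was not tested.

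Leaving out each replicate in turn gave level counts of 1 to 6 (KB742) and 1 to 12 (KI-ARv-03) at 8 h, 14 to 22 for DMSO at 8 h against 2 h, and 0 in each of the other level comparisons. Conversion counts ran over 1 to 5, 13 to 29 and 15 to 24 with KB742 at 2, 4 and 8 h, 0 to 7, 9 to 31 and 15 to 25 with KI-ARv-03, and 16 to 30, 41 to 55 and 26 to 45 with DMSO against 0 h.

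The replicate block was a term for the replicate number over all 30 libraries. With it, the level count of DMSO at 8 h against 2 h, where the numbers may pair the libraries, was 23 (2 higher, 21 lower). A paired fit of these 2 groups alone was not run. Elsewhere the libraries share only a number (10 of 30 pairs over all comparisons had r over 0.1, range -0.361 to 0.451), and the block gave level counts of 4 and 9 at 8 h with KB742 and KI-ARv-03 and 0 at 2 and 4 h, and conversion counts of 3, 31 and 25 with KB742, 5, 20 and 24 with KI-ARv-03 and 28, 56 and 44 with DMSO. It lost 3 of the named calls (ZNF839 with KB742 in level, ZNF275 and ZNF148 with KI-ARv-03 in conversion at 2 h). Conversion values needed 20 reads, and 57 of 101 members had one with DMSO at 8 h.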
